A study of Mus musculus with 8 samples.

Results

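The genes described are 10 transcription factors of hair matrix, hair shaft and inner root sheath fate: Hoxc13, Foxn1, Msx1, Msx2, Lef1, Foxq1, Gata3, Cux1, Dlx3 and Ovol1. They were taken by name, and all 10 were found among the 49315 genes of the count tables. RNA sequencing had been done on epidermis isolated from mouse back skin, labelled as keratinocytes, at an age of 22 months. There were 5 Tgfa knockout (Tgfa KO, here KO) libraries and 3 wild type (WT) libraries, with no treatment beyond age named in either group. Tgfa encodes one of the EGF receptor ligands. The series asks what its loss does to hair follicles in aged mice. The strain, the structure of the targeted allele and whether it was deleted in all tissues were not found in the labels, nor do these state that each library came from a separate animal.

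A growing hair is built by matrix cells at the base of the follicle, which divide and then enter the hair shaft or the inner root sheath that surrounds it. Wnt signals act in the matrix through beta-catenin and its DNA-binding partner Lef1, and BMP signals act through factors such as Msx2 and Foxn1, which lead to hair keratin expression. In the resting phase of the hair cycle the matrix is absent. Several of these factors work outside the hair as well: Gata3, Dlx3 and Ovol1 also act in the layers of the epidermis between the follicles, and Gata3 and Lef1 in T cells.

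Facts of the libraries that touch these genes were as follows. Total counts ran from 5313552 to 17417500 in KO and from 12968728 to 18292303 in WT. KO replicate 2 was the shallowest. It had 6.19 counts per kb of exon on silent protein-coding genes, against 2.31 in WT replicate 3, 1.08 in WT replicate 2 and 0.045 to 0.252 in the remaining 5 libraries. Silent genes were those with at most 1 count in each of these 5 libraries, the library itself left out. The nuclear noncoding RNA Malat1 made up 4.88% of counts in the library labelled KO replicate 1 and 6.61% in WT replicate 3, against 1.34% to 1.84% elsewhere. Tgfa itself had 131.71 CPM (counts scaled to a library size of 1e6) in the library labelled KO replicate 1, which goes against its label, 34.39, 43.33, 36.17 and 70.15 CPM in KO replicates 2 to 5, and 92.47, 85.07 and 111.69 CPM in WT. Tgfa was not called between the groups: its log2 fold change of KO over WT was -0.61 with an SE of 0.43 (edgeR adjusted p = 0.899). Library names end in bl for KO replicates 3 to 5 and in br for the other 5 libraries, all WT included, and what the ending means is not given in the labels. Markers of the labelled cell type were abundant: the suprabasal keratin gene Krt10 averaged 8290 ± 2860 CPM in KO and 5900 ± 1720 CPM in WT, with 13958.12 to 32370.97 summed CPM of the 8 keratinocyte markers in KO and 13572.79 to 28228.49 in WT.

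No member passed the test between KO and WT, where 0.0052% of all tested genes did. The levels of all 10 overlapped between the groups. Of all tested genes, 3.4% had every KO library above every WT library and 1.75% had every KO library below. The genes of shaft fate Foxn1 and Foxq1 averaged 31.8 ± 12.6 and 21.6 ± 5.38 CPM in KO (SD, n = 5), against 21.9 ± 8.08 and 15.5 ± 5.21 CPM in WT (n = 3, as for all means below). Ovol1 averaged 105.3 ± 43.7 CPM in KO and 172.6 ± 96.8 CPM in WT. The matrix factor Lef1 and the homeobox factors Msx1 and Hoxc13 were scarce in both groups, which bears on how far their values can be read.

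Levels between genes were compared per exon length. In TPM (counts per exon length, scaled alike), Gata3 was first at 382 ± 181 TPM in KO and 465 ± 145 TPM in WT, and was the highest of the 10 in all 8 libraries. Ovol1 was second in all 8, at 84.4 ± 32.7 TPM in KO and 159 ± 102 TPM in WT. Dlx3, Cux1, Foxn1 and Foxq1 formed a middle group, with KO means of 39.3, 25.2, 25.7 and 20.6 TPM and WT means of 40.3, 29.4, 17.6 and 14.9 TPM. Their order changed between libraries, so neighbours in this group did not differ beyond their spread. Below them came Msx2 (4.86 ± 1.54 TPM in KO, 6.38 ± 1.68 TPM in WT) and Hoxc13 (4.18 ± 2.68 TPM in KO, 2.36 ± 1.05 TPM in WT). Lef1 and Msx1 were last, at 0.855 ± 0.936 and 0.711 ± 0.593 TPM in KO and 0.499 ± 0.274 and 0.38 ± 0.568 TPM in WT, and their spreads covered each other. Gata3, Ovol1 and Dlx3 had the 3 highest means, although Dlx3 was not apart from its neighbours and ranked 4 or 5 in 3 libraries.

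**Figure D1:**
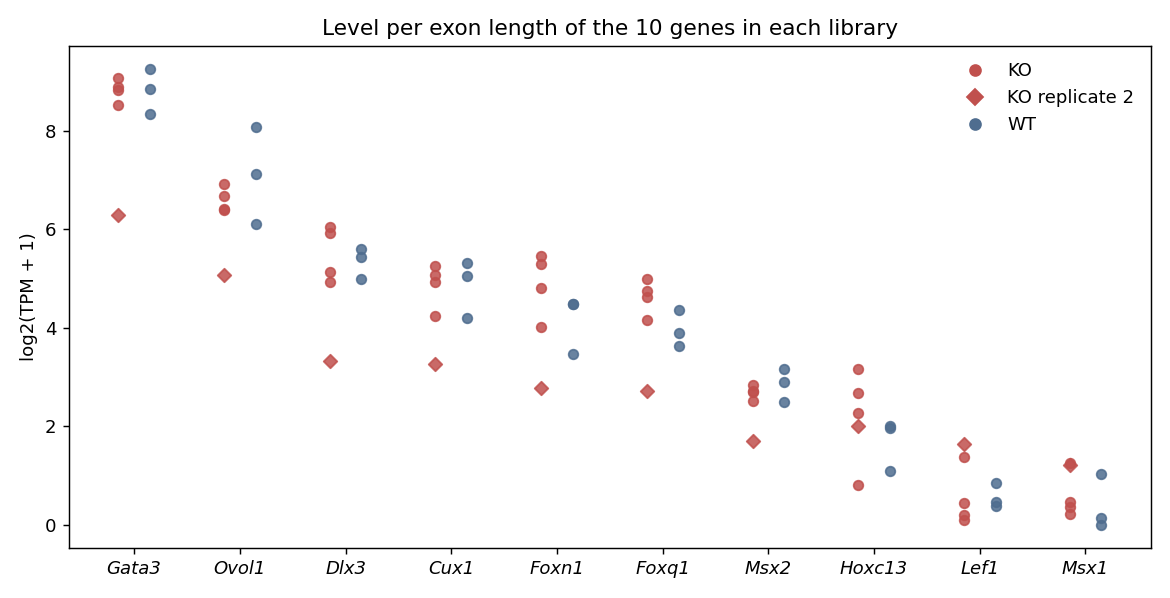
Level of each member in each library, as log2(TPM + 1) on the vertical axis, with genes in falling order of their mean on the horizontal axis; each point is 1 library, KO on the left and WT on the right of each gene. Gata3 was highest and Ovol1 second in all 8 libraries, and KO replicate 2 (diamonds) lay lowest for the 7 most abundant genes. TPM were not corrected for library composition, and the gene Gm10800 made up 12.44% of counts in KO replicate 2. In CPM that library was not the lowest for Foxn1, Foxq1, Msx2 or Ovol1.

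Msx1 and Msx2 are paralogs with homeobox domains close in sequence, and reads from paralogs can be miscounted where their transcripts are alike. A coding stretch of 120 bases within the homeobox is shown so that the 2 can be compared. It was picked as the in-frame stretch with the most identical bases, so no other coding stretch of that length, in frame in both genes, is more alike without gaps. It covers bases 547 to 666 of the 909 coding bases of Msx1 and bases 457 to 576 of the 801 coding bases of Msx2, in GENCODE transcripts on GRCm38, 5′ to 3′. Capitals mark the bases that differ.
Msx1: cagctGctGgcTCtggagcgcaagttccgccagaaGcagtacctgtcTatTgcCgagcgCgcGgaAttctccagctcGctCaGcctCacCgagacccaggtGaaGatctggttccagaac
Msx2: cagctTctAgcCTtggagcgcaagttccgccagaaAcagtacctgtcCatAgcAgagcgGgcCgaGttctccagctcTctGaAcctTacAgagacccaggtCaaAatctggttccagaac
The stretches were identical at 102 of 120 bases (85%), the longest identical run was 22 bases, and 16 of the 18 differences fell at the third codon position. No run of 50 bases was shared between any Msx1 transcript and a transcript of another gene, and the same held for Foxn1, Hoxc13 and Dlx3. Msx2 shared 0.46% of its runs of 50 bases with other genes, Cux1 1.97%, Gata3 2.22%, Lef1 13.72%, Ovol1 19.55% and Foxq1 65.73%. The Foxq1 figure came from A530084C06Rik, a gene on the opposite strand whose exons overlap 38.07% of the Foxq1 exon bases counted here, and 23.79% of the Ovol1 exon bases overlap the gene Gm31166 on the opposite strand. The labels do not say how reads in such overlaps were counted. The shares of runs were taken over GENCODE transcripts, and the overlaps over the gene models counted here. In GENCODE Foxq1 starts at 31556134 and in the counted model at 31558324, so the 65.73% covers bases that were not counted. The 2 models of Ovol1 also differed in their coordinates.

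Lef1 has several start sites, and the count per gene joins transcripts from all of them. From several RefSeq promoters on the plus strand of chromosome 3 (GRCm38.p6), a pair is shown because their products are not told apart in these data. They are an upstream one, chr3:131110073-131110372, and one inside the gene, chr3:131156044-131156343, each with 250 bases before and 50 after the start. Capitals mark matches on either strand to 4 short motifs. The core bound by TCF and LEF factors was searched as CTTTGA. The core bound by MSX factors was searched as TAATTG. The sequence used for a TATA box was TATAAA. The sequence used for a GC box was GGGCGG.
Lef1 upstream: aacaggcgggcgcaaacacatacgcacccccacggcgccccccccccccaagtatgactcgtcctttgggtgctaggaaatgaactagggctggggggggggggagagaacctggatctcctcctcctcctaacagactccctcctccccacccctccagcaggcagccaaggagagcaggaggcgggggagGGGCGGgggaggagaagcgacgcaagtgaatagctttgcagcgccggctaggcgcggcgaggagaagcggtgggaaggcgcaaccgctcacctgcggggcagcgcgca
Lef1 internal: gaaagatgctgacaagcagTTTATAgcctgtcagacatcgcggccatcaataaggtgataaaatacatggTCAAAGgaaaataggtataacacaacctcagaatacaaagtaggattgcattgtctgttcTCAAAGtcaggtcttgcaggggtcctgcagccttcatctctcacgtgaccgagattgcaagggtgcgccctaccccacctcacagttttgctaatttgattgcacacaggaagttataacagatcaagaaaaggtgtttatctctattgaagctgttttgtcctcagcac
The upstream promoter shown was 67.3% G and C and held 1 GC box match, while the internal promoter was 43.7% G and C and held 2 matches to the TCF and LEF core and 1 to the TATA box. The Lef1 promoters not shown, chr3:131110047-131110346 and chr3:131112541-131112840, each held 1 GC box match and none of the other motifs. Over the 32851 promoters in the table, 16% held the TCF and LEF core, 8.0% the MSX core, 13.6% the TATA box and 35.7% the GC box, and the median G and C share was 52.7%. Promoters of 6 members were in the table: besides Lef1 they were Foxn1, Msx1, Msx2, Gata3 and Cux1, with 62.7%, 70.0%, 61.0%, 67.3% and 65.0% G and C. None of those 5 promoters held the TCF and LEF core, the MSX core or the TATA box in these 300 bases.

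Hoxc13, which switches on hair keratin genes in the shaft, lies on chromosome 15 (ENSMUSG00000001655, 102921103 to 102928814, GRCm38). It had 0.96, 6.25, 3.31, 4.22 and 6.82 CPM in KO replicates 1 to 5, and 2.63, 2.84 and 1.17 CPM in WT replicates 1 to 3. KO replicates 2 to 5 were all above the WT libraries and the library labelled KO replicate 1 was below them, so the groups overlapped. KO over WT, the log2 fold change was 0.95 with an SE of 0.65 (edgeR adjusted p = 0.884), and its 95% interval ran from -0.49 to 2.39. Behind these values stood 13, 36, 53, 74 and 98 counts in KO and 47, 43 and 15 counts in WT. Silent genes of the same length would have had 15.2 counts in KO replicate 2, which is 42.2% of its Hoxc13 count, and 5.7 counts in WT replicate 3, or 38.0%.

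Foxn1, the gene mutated in nude mice and needed for hair shaft differentiation, lies on chromosome 11 (ENSMUSG00000002057, 78357577 to 78386558). It had 25.4, 15.8, 48.6, 38.9 and 30.2 CPM in KO and 24.2, 12.9 and 28.5 CPM in WT. KO replicates 3 to 5 were above all WT libraries, while KO replicates 1 and 2 lay within the WT range. On the log2 scale KO exceeded WT by 0.54 with an SE of 0.38 (edgeR adjusted p = 0.898), and the 95% interval ran from -0.31 to 1.39. The 3 libraries above the others are those whose names end in bl, at 30.2 to 48.6 CPM, against 12.9 to 28.5 CPM in the 5 libraries ending in br. Such a separation of bl above br was found in 8.36% of all genes tested. Among libraries ending in br the log2 fold change was -0.11 (SE 0.48, edgeR adjusted p = 0.994), and with the ending as a covariate it was -0.08. The KO libraries of the br comparison are the library labelled KO replicate 1, whose Tgfa level goes against its label, and KO replicate 2, where 21.9% of the Foxn1 count would be reached on silent genes of its length. Without WT replicate 2, the log2 fold change over all other libraries was 0.0 (SE 0.4). No WT library ends in bl, so for this excess the ending and the genotype cannot be told apart.

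Foxq1, the satin gene, which acts in the medulla of the hair shaft, is a gene of 1 exon on chromosome 13 (ENSMUSG00000038415, 31558324 to 31560976). It had 23.4, 12.3, 22.1, 26.2 and 23.9 CPM in KO and 12.99, 12.04 and 21.49 CPM in WT. All KO libraries but replicate 2 were above all WT libraries. Without KO replicate 2 every KO library was above every WT library, as for 6.28% of all tested genes in that set of libraries. The difference of KO over WT on the log2 scale came to 0.48 with an SE of 0.3 (edgeR adjusted p = 0.873), and the 95% interval ran from -0.19 to 1.16. Without WT replicate 2 it was 0.04 (SE 0.39), and among libraries ending in br 0.2 (SE 0.47). Unlike Foxn1, its level in the library labelled KO replicate 1 was within the range of KO replicates 3 to 5.

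Msx2, a homeobox factor of the matrix and shaft upstream of Foxn1, was among the steadiest members in CPM. It lies on chromosome 13 (ENSMUSG00000021469, 53466884 to 53473074) and had 9.51, 6.25, 5.5, 5.76 and 7.1 CPM in KO and 9.24, 8.53 and 6.33 CPM in WT. For Msx2 the log2 fold change came to -0.24 with an SE of 0.29 (edgeR adjusted p = 0.935), and the 95% interval ran from -0.88 to 0.41. In KO replicate 2, 56.4% of its 36 counts would be reached on silent genes of its length. That leaves 15.7 counts above this level, so its steadiness is less sure in that library. Its paralog Msx1, on chromosome 5 (ENSMUSG00000048450, 37820485 to 37824583), was barely detected. It had 30, 20, 3, 5 and 6 counts in KO and 0, 2 and 17 counts in WT, or 2.21, 3.47, 0.19, 0.29 and 0.42 CPM in KO and 0, 0.13 and 1.33 CPM in WT. The 20 counts of KO replicate 2 compare with 19.2 on silent genes of that length, and the 2 counts of WT replicate 2 with 3.4. The library labelled KO replicate 1 stood clear of that level, with 30 counts against 0.8. The fitted log2 fold change of Msx1, 1.41 (SE 1.47, edgeR adjusted p = 0.931), rests on these few counts.

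Lef1, the DNA-binding partner of beta-catenin in the matrix and the forming cortex, lies on chromosome 3 (ENSMUSG00000027985, 131110471 to 131224356). It had 0.29, 15.6, 1.13, 0.4 and 4.87 CPM in KO and 0.95, 1.32 and 2.97 CPM in WT, from 4, 90, 18, 7 and 70 counts in KO and 17, 20 and 38 in WT. KO replicates 2 and 5 were above all WT libraries, and the library labelled KO replicate 1 and KO replicate 4 were below all of them. Of the 90 counts in KO replicate 2, 54.4 (60.4%) would be reached on silent genes of the same length, and of the 38 in WT replicate 3, 20.3 (53.4%). KO replicate 5 had 70 counts against 0.7 on silent genes, so its Lef1 count stood above that level. For Lef1 the log2 fold change came to 1.33 with an SE of 1.22 (edgeR adjusted p = 0.927), and the 95% interval ran from -1.41 to 4.06. Without KO replicate 2 the value was -0.1.

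**Figure D2:**
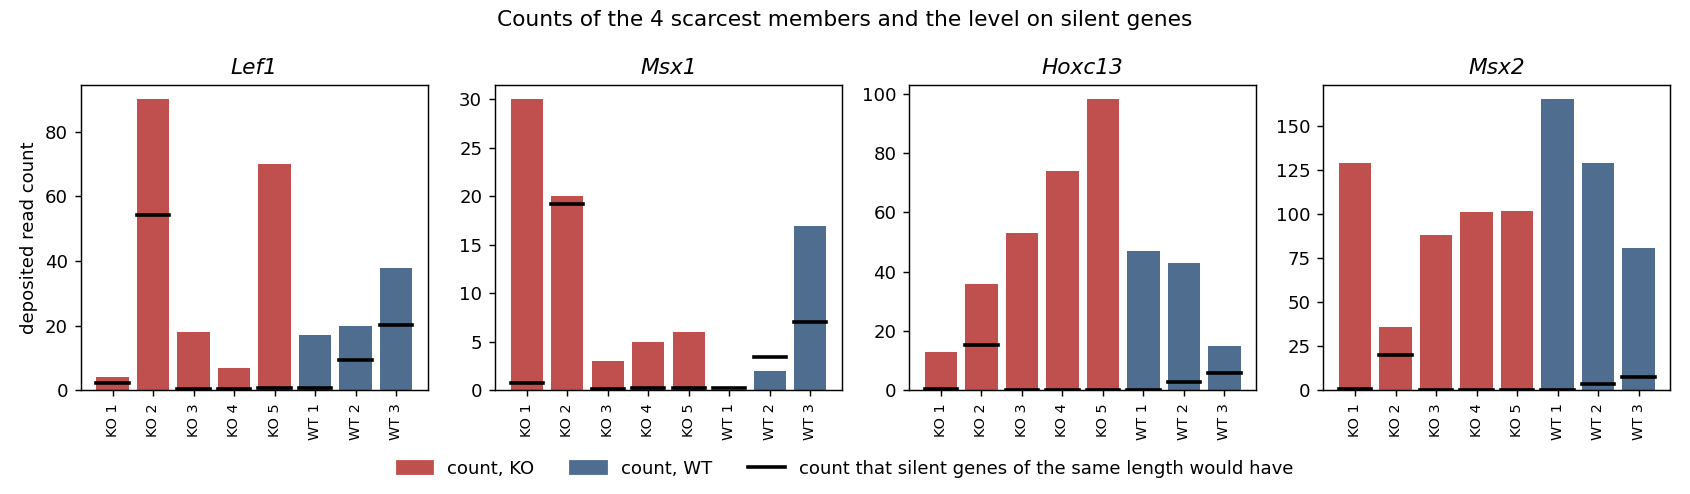
Deposited read counts (bars, vertical axis from 0, scale differing by panel) of the 4 scarcest members in KO and WT libraries, with a line at the count that silent protein-coding genes of the same exon length would have had in that library. In KO replicate 2 the line lies at 54.4 of 90 counts for Lef1 and 19.2 of 20 for Msx1, while the 70 Lef1 and 98 Hoxc13 counts of KO replicate 5 stand far above it.

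Gata3, a zinc finger factor that specifies the inner root sheath and also acts in epidermal barrier formation, lies on chromosome 2 (ENSMUSG00000015619, 9857078 to 9890034). It had 983, 256, 640, 678 and 513 CPM in KO and 644, 514 and 1012 CPM in WT. The highest values were in the 2 libraries with the high Malat1 share, the library labelled KO replicate 1 and WT replicate 3, and the lowest in KO replicate 2. KO over WT, the log2 value came to -0.24 with an SE of 0.41 (edgeR adjusted p = 0.938), and the 95% interval ran from -1.14 to 0.67. T cells also express Gata3, and 12 T cell markers summed to 102.74 to 229.21 CPM in KO and 83.79 to 160.35 CPM in WT, highest in KO replicates 3 and 4, where Gata3 was in the middle of its range. The part of T cells in the Gata3 level was not tested. In bulk RNA, fewer cells of a type and less RNA per cell cannot be told apart.

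Cux1, a homeobox factor with cut repeats linked to the inner root sheath, lies on chromosome 5 (ENSMUSG00000029705, 136248135 to 136567490). Its gene also gives rise to a Golgi protein by alternative splicing, so a gene-level count covers more than the transcription factor. It had 186.8, 145.0, 230.0, 238.2 and 206.6 CPM in KO and 273.0, 257.6 and 145.1 CPM in WT, with overlap between the groups. Its log2 fold change of -0.16 had an SE of 0.27 (95% interval -0.77 to 0.45, edgeR adjusted p = 0.938). Dlx3, a homeobox factor of shaft and root sheath formation and of the suprabasal epidermis, lies on chromosome 11 (ENSMUSG00000001510, 95120119 to 95125296). It had 80.8, 19.6, 27.1, 28.2 and 59.0 CPM in KO and 43.8, 32.3 and 45.9 CPM in WT. The KO libraries fell on both sides of the WT range, and the log2 value of KO over WT came to 0.08 with an SE of 0.44 (edgeR adjusted p = 0.978, 95% interval from -0.9 to 1.07).

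Ovol1, a zinc finger factor downstream of Wnt signals in hair and a regulator of epidermal differentiation, lies on chromosome 19 (ENSMUSG00000024922, 5549137 to 5560575). It had 181.3, 79.4, 85.5, 77.3 and 103.2 CPM in KO and 274.6, 161.4 and 81.9 CPM in WT. KO replicates 2 to 5 were below WT replicates 1 and 2, while WT replicate 3 lay among the KO libraries. For Ovol1 the log2 fold change came to -0.71 with an SE of 0.41 (edgeR adjusted p = 0.851), and the 95% interval ran from -1.62 to 0.2. Without WT replicate 1 it was -0.19.

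**Figure D3:**
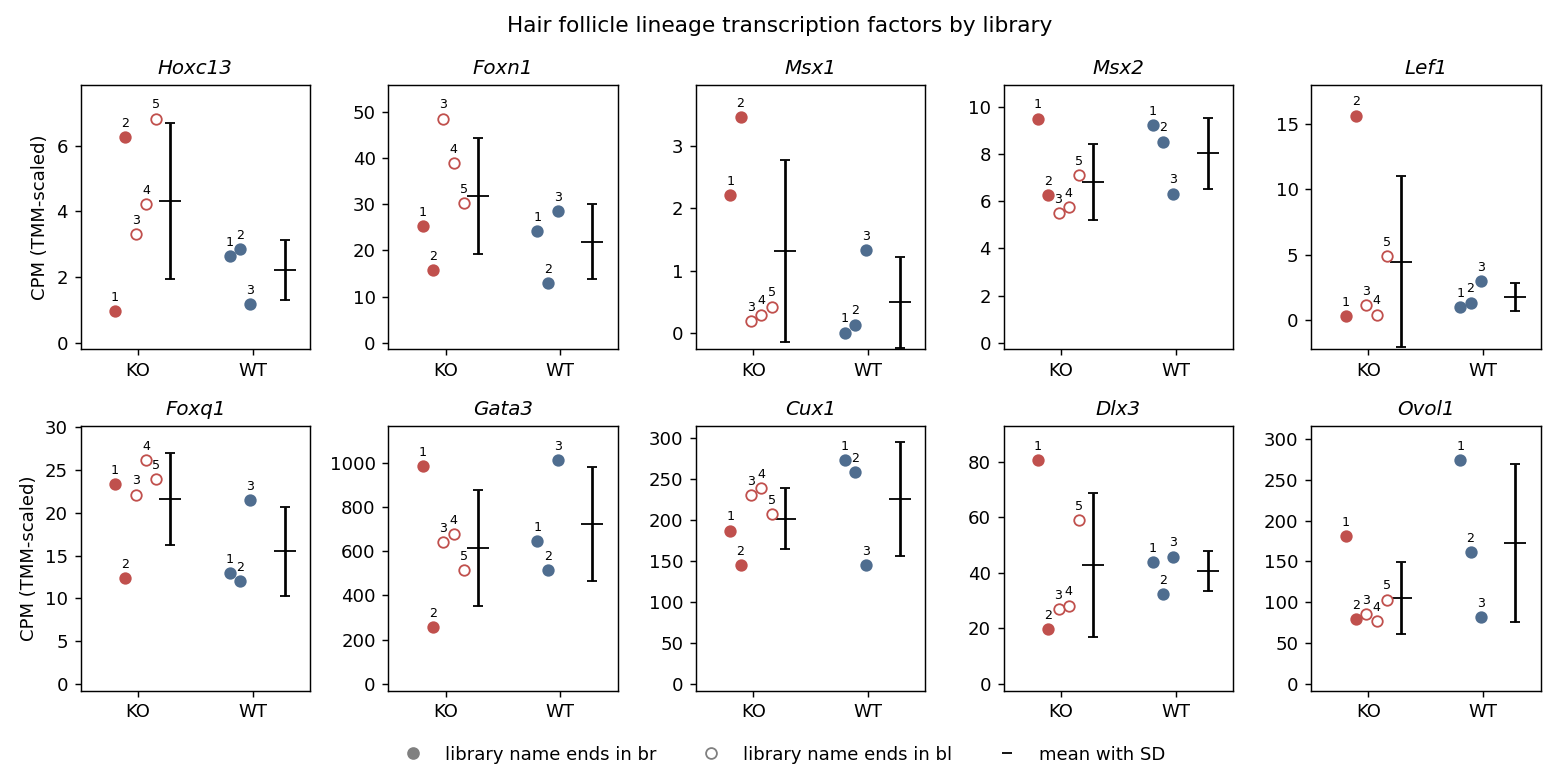
CPM of each member (vertical axis, scale differing by panel) in the KO and WT libraries, numbered by replicate, with filled points for library names ending in br and open points for bl, and the mean with SD (n = 5 KO, 3 WT). All 10 members overlap between the groups, where 3.4% of all tested genes had every KO library above every WT library and 1.75% below. The 3 open points of Foxn1 lie above every filled point, a pattern found in 8.36% of all tested genes.

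By the edgeR quasi-likelihood test over 19239 genes, 0 of 10 members passed an adjusted p of 0.05, where 0.0052% of all tested genes did (1 gene). At an unadjusted p under 0.05 there were also 0 members, the smallest p being 0.112 for Ovol1, and DESeq2 and limma voom called 0 members as well. The median log2 fold change of the 10 members was 0.28 and that of all tested genes 0.16, with 6 members positive and 4 negative. The number of members with every KO library above every WT library was 0, against 3.4% of tested genes, and with every KO library below it was also 0, against 1.75%. In two-sided exact permutation tests of log2(CPM + 1) over libraries, 10 in number, p ran from 0.143 for Foxq1 to 0.893 for Lef1 and Dlx3, where 0.0357 is the smallest that 5 against 3 libraries allow. The 95% intervals of the 7 more abundant members reached at most 1.39 and at least -1.62 on the log2 scale.

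A fit that weights libraries by how well they follow the fitted values gave calls for 3 members. The weights were 0.28 for the library labelled KO replicate 1, 0.37 for KO replicate 2, 1.74 to 2.25 for KO replicates 3 to 5, 0.34 for WT replicate 3 and 1.47 and 2.26 for WT replicates 1 and 2. In it Foxn1 and Foxq1 rose (log2 fold change 1.1, SE 0.28, and 0.86, SE 0.19) and Ovol1 fell (-1.05, SE 0.25), with limma adjusted p of 0.0373, 0.0249 and 0.0272. The same fit called 6.46% of all tested genes. Each of the 3 calls ended without WT replicate 1, WT replicate 2, KO replicate 3 or KO replicate 4, alternatives added after the data were seen. Without WT replicate 2 the values were 0.24 for Foxn1, 0.25 for Foxq1 and -0.92 for Ovol1 (limma adjusted p = 0.86, 0.836 and 0.593). Without WT replicate 1 they were 1.05, 0.63 and -0.26 (limma adjusted p = 0.155, 0.294 and 0.695). Without KO replicate 3 they were 0.83, 0.87 and -0.98 (limma adjusted p = 0.163, 0.0808 and 0.116), and without KO replicate 4 they were 0.93, 0.79 and -0.9 (limma adjusted p = 0.157, 0.098 and 0.132). The share of all genes called was 0.00858% to 2.73% in the 4 fits that called 0 members, and 6.65% to 10.1% in the 4 that called 3. With WT replicate 3, KO replicate 2 and the library labelled KO replicate 1 all left out, edgeR called Foxq1 (0.91, adjusted p = 0.0127) and Ovol1 (-1.33, adjusted p = 0.0149) but not Foxn1 (1.05, adjusted p = 0.0659), and 10.6% of all genes. That comparison sets 3 KO libraries ending in bl against 2 WT libraries ending in br, so genotype and ending cannot be told apart in it. Values for Foxq1 and Ovol1 among libraries ending in br were smaller, 0.2 (SE 0.47) and -0.45 (SE 0.69), with an edgeR adjusted p of 0.993 for both.

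**Figure D4:**
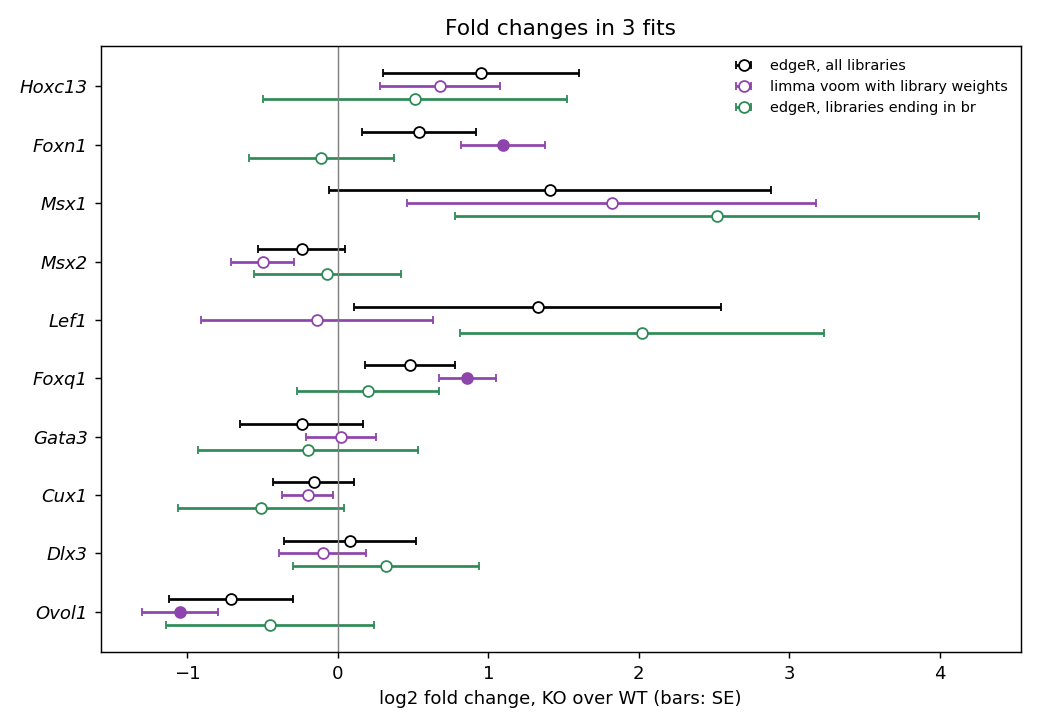
Log2 fold change of KO over WT (horizontal axis, bars are SE) for each member in 3 fits: edgeR on all libraries (black), limma voom with library weights (purple) and edgeR on libraries ending in br (green); a filled point has an adjusted p under 0.05. Foxn1, Foxq1 and Ovol1 are filled in the weighted fit alone, at 1.1, 0.86 and -1.05, and Foxn1 lies at -0.11 among libraries ending in br.

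Levels of hair structure genes, several of which are known targets of these factors, varied between libraries of the KO group. The 15 hair shaft keratins in the files summed to 9.51, 61.48, 6.0, 10.16 and 87.76 CPM in KO and to 11.59, 10.78 and 18.52 CPM in WT. KO replicates 2 and 5 stood above the rest. In KO replicate 2, 171.6 of the 354 counts would be reached on silent genes of the same summed length, and in KO replicate 5 only 2.1 of 1261. The 2 most abundant tested keratins were Krt87 (4.32 ± 4.9 CPM in KO, 2.08 ± 1.45 in WT) and Krt32 (2.99 ± 2.23 CPM in KO, 2.65 ± 1.32 in WT). Among inner root sheath and companion layer genes they were Cdsn, which encodes corneodesmosin and is also an epidermal gene (968 ± 969 CPM in KO, 1460 ± 488 in WT), and Ctsl (139 ± 185 and 204 ± 188). Among shaft structure genes they were Liph (32.6 ± 10.8 CPM in KO, 44.4 ± 8.52 in WT) and Tgm3 (42.7 ± 18.1 and 14 ± 8.45). Tchh and Krt71 were picked after their values were seen. Tchh, which encodes trichohyalin of the inner root sheath and medulla, had 64.4, 18.2, 10.3, 19.9 and 347 CPM in KO and 19.7, 13.6 and 20.9 CPM in WT. Krt71, an inner root sheath keratin, had 3.46, 6.6, 7.5, 13.2 and 189 CPM in KO and 8.12, 8.73 and 2.58 CPM in WT. KO replicate 5 was thus the highest library for the keratin sum, Tchh and Krt71, whereas the sum of all inner root sheath and companion layer genes, led by Cdsn, was highest in the library labelled KO replicate 1 (3196.16 CPM). Among the members KO replicate 5 was the highest library for Hoxc13 (6.82 CPM) and, after KO replicate 2, the second for Lef1 (4.87 CPM). KO replicate 5 was also the second highest library for Foxq1 (23.94 CPM) and Dlx3 (59.01 CPM). For Foxn1, Foxq1, Msx1, Msx2, Gata3, Cux1, Dlx3 and Ovol1 it lay inside the range of the other KO libraries. Of the 13 tested hair shaft keratins, 13 lay above 0 on the log2 scale (median 1.44) and 0 passed the edgeR test either way. Of the 13 inner root sheath and companion layer genes, 10 were positive and 3 negative (median 1.81), and of 12 hair shaft structure genes 9 and 3 (median 1.47), with 0 past the threshold either way. Krt36, with 0.06, 0.6 and 0.31 CPM in WT, passed the low-count filter through KO libraries alone, as did Krtap8-1 among the shaft structure genes. The counts of positive genes in these lists therefore lean upward in advance. With library weights the medians were -0.01 for the keratins, 0.49 for the inner root sheath and companion layer genes and 0.46 for the shaft structure genes, against -0.01 for all genes. In that fit 1 of the 12 shaft structure genes rose and 1 fell. It called 0 of the keratins and 0 of the inner root sheath and companion layer genes, against 6.46% of all genes.

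Other transcription factors of the follicle, taken as a list of 25, had 21 tested members, of which 0 passed in either direction in edgeR. Of these 18 were positive and 3 negative, with a median of 0.64 against 0.16 for all genes, and with library weights 0.2 against -0.01. The most abundant were Hr, the hairless gene, a nuclear corepressor of the hair cycle (416 ± 156 CPM in KO, 306 ± 56.1 in WT), Ctnnb1, which encodes beta-catenin (363 ± 98.9 and 386 ± 65.5), and Zfp750, a factor of epidermal differentiation (309 ± 84.0 and 307 ± 85.9). Bcl11b, a zinc finger factor of skin and T cells, averaged 361 ± 160 CPM in KO and 149 ± 66.7 CPM in WT (log2 fold change 1.28, edgeR adjusted p = 0.683). In 4 of the 21, named after their values were seen, every KO library was above every WT library, against 3.4% of all genes. These were Runx1, a factor of follicle stem cells (log2 fold change 1.43, edgeR adjusted p = 0.33), Sox21, a factor of the hair cuticle (1.11, 0.431), the homeobox gene Barx2 (1.04, 0.578) and the scarce Foxi3 (edgeR adjusted p = 0.581), which had 0.44 to 2.23 CPM in KO and 0 to 0.16 CPM in WT. Foxi3 passed the low-count filter through its KO libraries alone, so its place among these 4 was favoured by that filter. Runx1 had 66.5, 69.8, 68.2, 95.8 and 128.9 CPM in KO and 31.7, 27.9 and 36.0 CPM in WT. Sox21 had 43.0, 35.8, 56.5, 65.0 and 56.2 CPM in KO and 26.2, 27.5 and 17.7 CPM in WT. In the weighted fit 4 of the 21 rose, namely Runx1 (log2 fold change 1.59, limma adjusted p = 0.00443), Sox21 (1.13, 0.00575), Bcl11b (1.39, 0.0136) and Barx2 (1.09, 0.0192). That fit called 6.46% of all genes, and 2 genes in all without WT replicate 2.

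Among 16 transcription factors of epidermal differentiation, 8 were positive and 8 negative (median -0.06), and 0 passed in edgeR. Trp63, the p63 gene of basal keratinocytes, averaged 972 ± 202 CPM in KO and 968 ± 417 CPM in WT, and Klf4, a barrier factor, 776 ± 312 and 737 ± 235. Of 28 signal genes of the matrix (Wnt, BMP, hedgehog and ectodysplasin pathways and Notch), 26 were tested, 18 were positive and 8 negative, with a median of 0.31 and 0 past the threshold. The most abundant were Notch1 (484 ± 155 CPM in KO, 567 ± 138 in WT) and its ligand gene Jag1 (223 ± 27.2 and 247 ± 15.6). Of 31 family relatives of the members, 18 were tested, 15 were positive and 3 negative (median 0.5), and 0 passed in edgeR. In 2 of these 18 every KO library was above every WT library, against 3.4% of all genes. The weighted fit, which called 6.46% of all genes, raised 2 of the relatives. It raised 2 and lowered 2 of the 26 signal genes, and raised 1 of the 16 epidermal factors. With library weights the median of the relatives was -0.01, as for all genes. In KO replicate 2 silent genes of the same summed length would reach 654.9 of the 3186 counts of the relatives. The Lef1 relatives Tcf7l2 and Tcf7 averaged 60.6 ± 12.9 and 19.8 ± 4.95 CPM in KO and 50.1 ± 19.2 and 18.2 ± 2.68 in WT. The most abundant relatives were those of Foxn1, with Foxn3 at 291 ± 51.8 CPM in KO and 375 ± 31.2 CPM in WT, and Foxn2 at 86.3 ± 3.89 CPM in KO and 101 ± 33.3 CPM in WT.

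**Figure D5:**
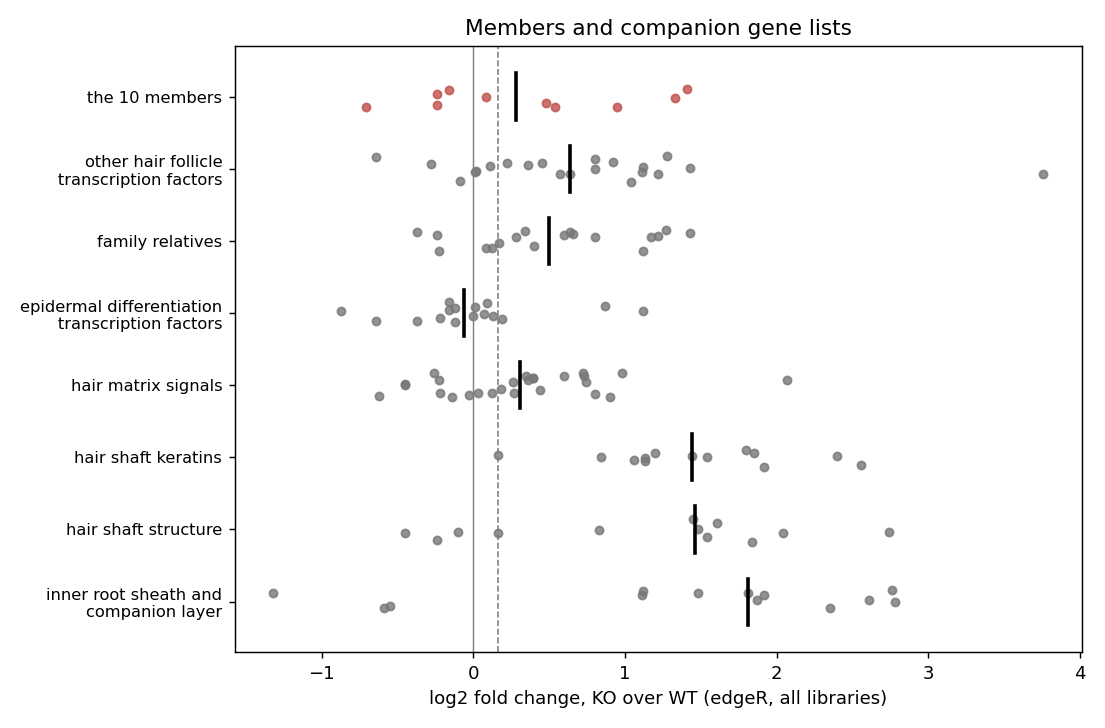
Log2 fold change of KO over WT in edgeR on all libraries (horizontal axis) for each tested gene of the 10 members and of 7 companion lists; each point is a gene, the thick line is the median of the list, and the dashed line the median of all tested genes (0.16). The median is 0.28 for the members, 1.44 for the hair shaft keratins and -0.06 for the epidermal differentiation factors, and no gene shown passed the threshold.

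Markers of other cell types were present in all libraries. Dermal fibroblast and papilla markers, from cells that also express Lef1, summed to 9.5 to 109.93 CPM in KO and 40.88 to 45.96 CPM in WT, and endothelial markers to 2.44 to 52.28 CPM in KO and 1.46 to 11.65 CPM in WT, each highest in KO replicate 2. In that library silent genes of the same summed length would reach 394.9 of the 633 fibroblast and papilla counts, 149.7 of the 301 endothelial, 109.4 of the 154 melanocyte and 81.2 of the 168 muscle counts. Melanocyte markers summed to 8.55 to 26.75 CPM in KO and 9.3 to 20.04 CPM in WT, sebocyte markers to 74.16 to 190.08 and 42.68 to 64.26 CPM, skeletal muscle markers to 0.88 to 29.18 and 3.08 to 11.1 CPM, and Langerhans cell and macrophage markers to 203.49 to 764.29 and 545.52 to 790.6 CPM. Most of the sebocyte sum was Fabp5 (112 ± 51.4 CPM in KO, 48.1 ± 9.72 in WT), which keratinocytes also express. Of these lists 0 genes passed in edgeR, and their part in the levels of the members was not tested.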

How the data were processed

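For every library the authors deposited whole-number read counts by gene, not normalized. The submitters' processing notes name Trimmomatic 0.36 and STAR 2.5.2b, then featureCounts from Subread 1.5.2, and both GRCh38 and GRCm38; the gene identifiers are those of mouse, per the file headers. Strandedness and the handling of multi-mapping reads are not stated in the labels. Of 49315 genes, 49056 matched GENCODE release M21 (GRCm38) by identifier and 48970 had a symbol. Promoters are from RefSeq on GRCm38.p6.

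Groups came from the genotype label. Replicate numbers follow the order of deposition and pair no libraries, and since separate animals are not stated, p-values speak for the spread among these samples, which may be technical. All pairs of libraries differed beyond sampling noise (lowest chi-square per gene 13.74). The main test was edgeR 4.0.16 under R 4.3.3 (quasi-likelihood, robust, TMM, filterByExpr, Benjamini-Hochberg over 19239 genes), with limma 3.58.1 and DESeq2 1.42.0 as alternatives. All 10 members passed the low-count filter. The fits were run on simulated counts with known changes. No uneven library quality, silent-gene counts or effect of the name ending was simulated, so the fits were not tested under those conditions. CPM use TMM-scaled totals, TPM the exon length in the files. The silent-gene level used protein-coding autosomal genes with at most 1 count in the 5 libraries with few olfactory and vomeronasal receptor counts (the library itself left out), with the top 1% trimmed. The members and gene lists were chosen with earlier results of these data known. All members are named, and of each list the 2 to 4 most abundant genes, with exceptions stated; the lists of other cell types are described by sums.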

Additional observations from a re-analysis of the deposited data

Results flagged for a closer look

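Ovol1 had 181.31 CPM in the library labelled KO replicate 1, far from the other 4 KO libraries (77.25 to 103.2 CPM): the gap to the nearest was 0.751 of the range of the group, above the 95% critical value of 0.71 for 5 samples. Such a gap was looked for in the 10 members, and chance gives about 1 in 20 groups. Without that library the log2 fold change of Ovol1 was -1.0 (edgeR adjusted p = 0.284).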

How the results depend on the processing

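No paired analysis was possible because the labels give no replicate numbers. The count of members past the threshold (0) became 3 with library weights and 2 without WT replicate 3 and KO replicates 1 and 2 together. The count stayed at 0 with each library left out in edgeR, and was 0 to 3 with each left out of the weighted fit, where 0.00858% to 10.1% of all genes passed. Of all genes, 1 of 19239 passed in edgeR, 0 with RLE factors, in limma voom or among libraries ending in br, and 0 to 1 with each library left out. With no filter 9 of 44484 passed, in DESeq2 137 of 43007, with weights 1243 of 19239 (6.46%) and without the 3 libraries 1883 of 17804 (10.6%). Of the companion genes 0 of 168 passed in edgeR. Those passing were 2 of 185 in DESeq2, 16 of 168 with weights and 24 of 155 without the 3 libraries, to be read beside these shares of all genes. Members whose groups do not overlap were 0, and 0 to 2 with each library left out (KO above: Msx1 without WT replicate 3, Hoxc13 without the library labelled KO replicate 1, Foxq1 when KO replicate 2 is left out, where 6.84%, 9.14% and 6.28% of all tested genes did so; KO below: Cux1 without WT replicate 3, where 7.14% did). With each library left out, Foxq1 ran from 0.04 to 0.79, Foxn1 from 0.0 to 0.77, Msx1 from 0.57 to 4.13 (6 fits), Msx2 from -0.39 to -0.1, Hoxc13 from 0.63 to 1.21 and Ovol1 from -1.06 to -0.19; Msx2 was -0.02 with the ending as a covariate. Foxn1 turned to -0.08 with the label ending as a covariate and -0.11 among libraries ending in br. Lef1 turned to -0.36 in limma voom, -0.14 with weights and -0.1 with KO replicate 2 left out. Dlx3 turned to -0.08 in limma voom and -0.1 with weights, -0.28 without either WT replicate 2 or the library labelled KO replicate 1, -0.06 when KO replicate 5 was left out and -0.03 without the 3 libraries. Gata3 turned to 0.02 with weights, 0.08 without WT replicate 3 and 0.05 without the 3 libraries, and Cux1 to 0.02 without WT replicate 1. With each library left out, Lef1 ran from -0.1 to 1.9, Dlx3 from -0.28 to 0.23, Gata3 from -0.71 to 0.08 and Cux1 from -0.41 to 0.02. The cause was not tested. With silent-gene counts subtracted, 0 of the 9 members still tested passed and none of these 9 changed sign (Msx1 was not among the genes tested there). Low counts limit Msx1 and Lef1.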
